A study of Bos taurus with 8 samples.

Results

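The genes described here are 43 genes of the cell cycle and DNA replication, chosen by symbol from a list of proliferation genes and measured in jejunal tissue of Holstein bull calves. All 43 were found among the 17932 genes of the expression table, as 96 transcripts with 1 to 6 per gene, and the values of a gene's transcripts were summed. They comprise 15 genes of S phase, 27 genes of mitosis and the G1 cyclin CCND1. The jejunum came from 4 calves fed 1 g/d of dead cells of Lactobacillus ingluviei (strain CR37 in the labels, and Limosilactobacillus ingluviei C37, postbiotic LIC37, in the methods) on top of the basal diet (DCLI1 to DCLI4) and from 4 calves on the basal diet without it (CON1 to CON4), with 1 RNA-seq library per calf. All calves were fed milk replacer, were offered starter feed from day 33, had their milk cut to 50% on day 82, were weaned by day 89 and were sampled on day 90. Each group began with 7 calves, of which 4 were taken at random for sequencing. The calves came from a single farm and entered the trial in their first days of life, with days counted from arrival, and the heat-inactivated bacteria were given in the morning milk replacer.

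A cell that divides copies its DNA in S phase and separates the copies in mitosis. Genes for replication are switched on largely by E2F transcription factors at the start of S phase, and genes for mitosis largely by MYBL2 (B-Myb) and FOXM1 in G2 phase, so that the mRNA level of both sets in a tissue follows the share of its cells that divide. In the small intestine, the dividing cells of the epithelium lie in the crypts and their daughters stop dividing as they move onto the villi, while a second dividing population, the germinal centre B cells, lies in the lymphoid follicles of the gut wall.

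The deposited values are TPM, in which reads are divided by transcript length and scaled so that each library sums to the same total, and levels of different genes can therefore be set side by side. The number of genes with at least 1 TPM was 12872 to 13247 in DCLI libraries and 12825 to 13552 in CON libraries. The label on RNA extraction names liver tissue, but the albumin gene ALB was at 0.15 to 1.07 TPM in DCLI and 0.05 to 0.36 TPM in CON, while the brush border gene VIL1 was at 821 to 1146 TPM in DCLI and 117 to 1274 TPM in CON, so the libraries were read as the jejunum of the other labels. CON4 stood apart from the other libraries. Ribosomal protein genes took 35.3% of its TPM, against 19.8% to 24.8% in the other 7 libraries. Its villus enterocyte markers had a mean log2(TPM + 1) of 4.60, against 8.70 to 9.48 in DCLI and 7.44 to 9.08 in CON1 to CON3. The comparisons of the diets are therefore given with and without it.

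In 7 of the 8 calves, the highest value of a replication or mitosis gene was 1.56 to 4.66 times the lowest, and in CON4 these genes stood at 3.80 to 19.99 times the median of those 7. The 43 genes made up 0.129%, 0.0987%, 0.147% and 0.0614% of all TPM in DCLI1 to DCLI4, against 0.111%, 0.0957%, 0.0672% and 0.927% in CON1 to CON4. CON4 was the highest library for 42 of 42 S phase and mitosis genes, while 39.8% of all tested genes were highest there. Between the diets as labelled, 0 of 43 genes passed the test, and the direction of the difference for most of them depended on whether CON4 was included.

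**Figure D1:**
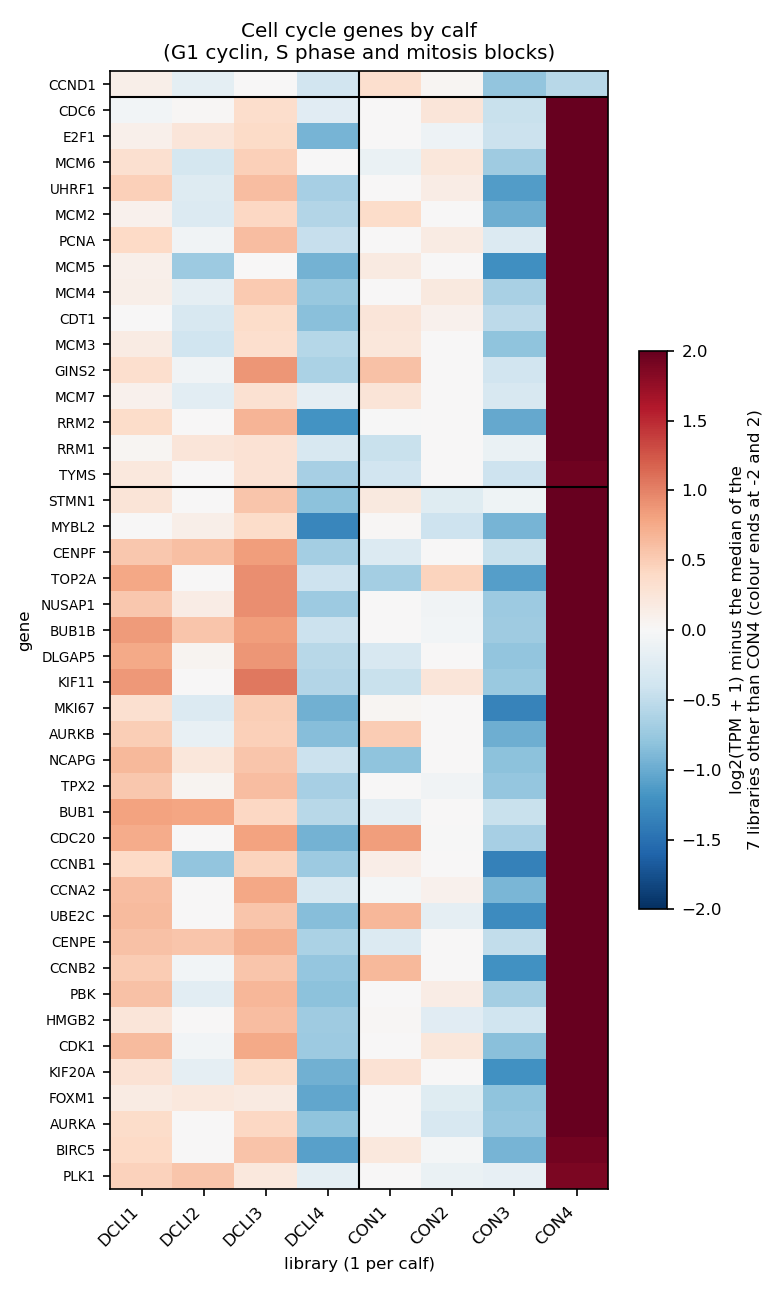
Heat map of the 43 genes (vertical axis, in blocks of CCND1, S phase and mitosis) in the 8 libraries (horizontal axis, 1 per calf), with colour giving log2(TPM + 1) minus the median of the 7 libraries other than CON4, ending at -2 and 2. The 42 S phase and mitosis genes are at or near the red end in CON4, at 3.80 to 19.99 times the median of the other 7 libraries, whereas CCND1 is not, and DCLI4 and CON3 hold the lowest value among those 7 for 41 of the 42.

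Among the S phase genes, PCNA, the sliding clamp that holds DNA polymerases on the template, had 51.96, 37.2, 60.2 and 28 TPM in DCLI1 to DCLI4, against 39.1, 43.7, 32.1 and 326 TPM in CON1 to CON4. The DCLI and CON1 to CON3 values interleaved, and CON4 was at 8.34 times the median of the other 7. MCM2, a subunit of the ring-shaped helicase (MCM2 to MCM7) that unwinds DNA at the replication fork, had 19.3, 14.8, 24.4 and 11.7 TPM in DCLI1 to DCLI4, against 23.7, 18.1, 8.74 and 162 TPM in CON1 to CON4. MCM5 of the same ring had 25.96, 14.2, 24.4 and 12.1 TPM in DCLI1 to DCLI4, against 27.5, 24.2, 9.74 and 197 TPM in CON1 to CON4. The lowest value of both helicase genes was in CON3 and the highest in CON4, both control calves, with the DCLI calves between them.

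The other 4 helicase subunits were also highest in CON4. Outside CON4 the 6 MCM genes were between 8.74 and 60 TPM, and in CON4 they were between 147 and 314 TPM, at 6.51 to 11.6 times the median of the other libraries. CDT1, which with CDC6 loads the helicase onto origins, had 7.57, 5.83, 10.1 and 3.78 TPM in DCLI1 to DCLI4, against 9.12, 8.14, 4.99 and 60.6 TPM in CON1 to CON4. GINS2, part of the complex that activates the loaded helicase, and CDC6 were likewise highest in CON4. The loading and initiation genes CDT1, CDC6 and GINS2 were at 1.89 to 19.3 TPM outside CON4 and at 35.9 to 70.7 TPM in it.

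The enzymes that supply DNA precursors had the smallest excess in CON4 among the S phase genes. TYMS, thymidylate synthase, had 48.4, 41.5, 51 and 25.8 TPM in DCLI1 to DCLI4, against 31.5, 41.7, 30.9 and 163 TPM in CON1 to CON4. RRM1, the large subunit of ribonucleotide reductase, had 25.2, 29.3, 30.4 and 19.4 TPM in DCLI1 to DCLI4, against 17.8, 24.6, 22.3 and 121 TPM in CON1 to CON4. These 2 genes and RRM2, the small subunit of that enzyme, were at 3.91 to 5.82 times the median of the other 7 libraries in CON4, against 8.10 times for the median S phase gene. E2F1, a transcription factor of the G1 to S transition, had 7.01, 7.76, 8.68 and 2.92 TPM in DCLI1 to DCLI4, against 6.44, 5.97, 4.55 and 74.5 TPM in CON1 to CON4. Its CON4 value was 11.6 times the median of the others, and its lowest value was in DCLI4. UHRF1, which recruits the maintenance DNA methyltransferase to newly copied DNA, was also highest in CON4, at 9.46 times the median of the others.

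CCND1, cyclin D1, which acts in G1 ahead of E2F activation and responds to growth signals, did not share this pattern. It had 13.1, 10.3, 11.97 and 8.98 TPM in DCLI1 to DCLI4, against 15.4, 12.3, 6.49 and 7.80 TPM in CON1 to CON4. The groups overlapped, the highest value was in CON1, and CON4 held the second lowest value, at 0.652 times the median of the others. Its mean was 11.1 ± 1.83 TPM in DCLI and 10.5 ± 4.10 TPM in CON (SD, n = 4 each), with a log2 fold change of 0.13 (SE 0.28, adjusted p = 0.893) by limma.

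**Figure D2:**
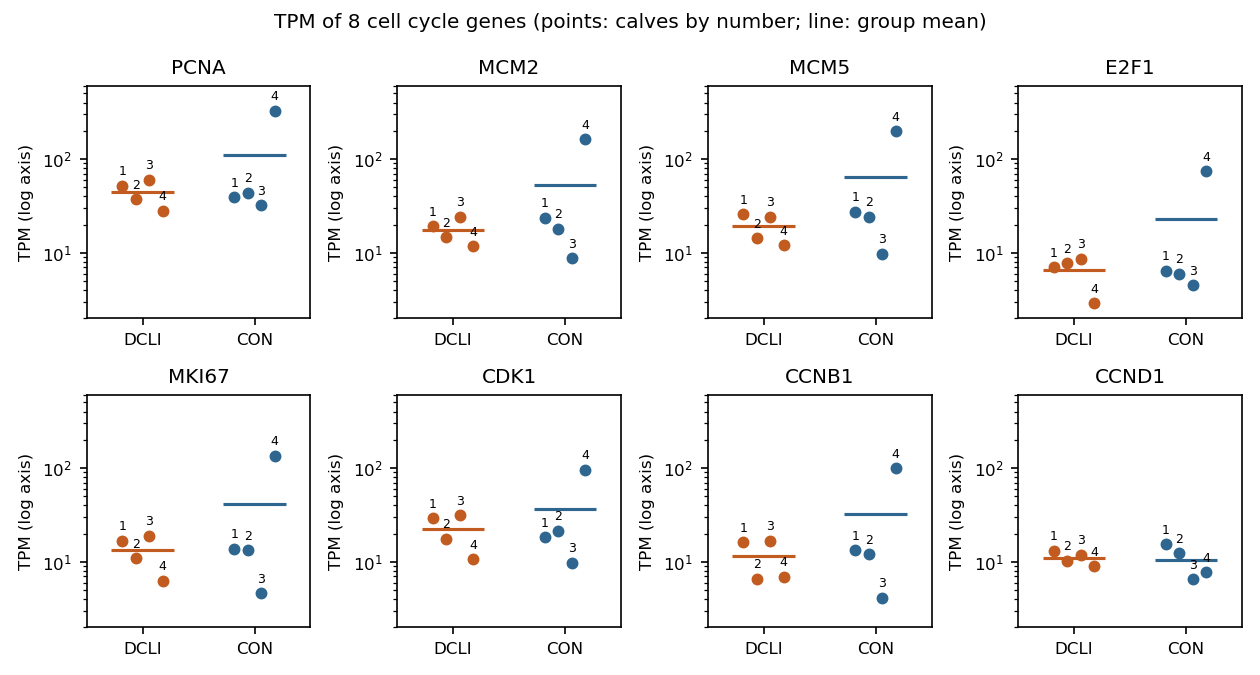
TPM on a log axis (vertical) of 8 genes in DCLI and CON calves (horizontal), with points numbered by calf and a line at the group mean. In the 7 panels other than CCND1, CON4 lies far above the other 7 libraries, which overlap between the groups. In the CCND1 panel CON4 is at 7.80 TPM, inside the range of the others.

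Among the mitosis genes, MKI67, the proliferation antigen Ki-67 that coats mitotic chromosomes, had 16.9, 10.9, 19.03 and 6.31 TPM in DCLI1 to DCLI4, against 13.8, 13.3, 4.65 and 135 TPM in CON1 to CON4. TOP2A, the topoisomerase that untangles sister chromatids, had 23.4, 13.3, 26.4 and 9.79 TPM in DCLI1 to DCLI4, against 7.90, 18.5, 5.67 and 176 TPM in CON1 to CON4. Outside CON4, the 2 highest TOP2A values were in DCLI3 and DCLI1 and the 2 lowest in CON3 and CON1. NCAPG, a subunit of the condensin complex that compacts chromosomes, had 15.1, 11.1, 14.1 and 6.63 TPM in DCLI1 to DCLI4, against 4.86, 9.29, 4.81 and 85.9 TPM in CON1 to CON4. It was higher in DCLI1, DCLI2 and DCLI3 than in CON1, CON2 and CON3, with DCLI4 among the control values. HMGB2, a chromatin protein of dividing cells, and BIRC5 (survivin), of the complex that corrects chromosome attachment, were at 1102 and 101 TPM in CON4, and the 5 chromosome genes together stood at 3.90 to 13.2 times the median of the other libraries there.

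CDK1, the kinase that drives entry into mitosis, had 28.99, 17.6, 31.4 and 10.6 TPM in DCLI1 to DCLI4, against 18.2, 21.4, 9.76 and 95.8 TPM in CON1 to CON4. CCNB1, cyclin B1, its main partner, had 16.2, 6.62, 16.9 and 6.96 TPM in DCLI1 to DCLI4, against 13.3, 12.1, 4.14 and 99.5 TPM in CON1 to CON4. For both genes DCLI1 and DCLI3 were the highest libraries after CON4, and CON3 was the lowest. CDK1, CCNB1, CCNB2 and CCNA2 (cyclins B2 and A2) were at 5.25 to 8.22 times the median of the other 7 in CON4. The kinases AURKA, AURKB, PLK1, BUB1, BUB1B and PBK, which run spindle assembly and its checkpoint, covered 3.80 to 11.8 times on the same measure.

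CENPE, a kinetochore motor that brings chromosomes to the spindle equator, had 3.58, 3.47, 3.98 and 0.97 TPM in DCLI1 to DCLI4, against 1.52, 2.04, 1.16 and 15.8 TPM in CON1 to CON4. It was the least abundant mitosis gene, and DCLI4 lay apart from the other 3 DCLI calves on the low side. CENPE and the other genes of kinetochores and spindles (CENPF, KIF11, KIF20A, NUSAP1, TPX2 and DLGAP5) were at 5.17 to 13.7 times the median of the others in CON4. CDC20 and UBE2C, which work with the anaphase-promoting complex so that mitosis can end, were at 8.47 (CDC20) and 7.88 times (UBE2C).

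The transcription factors of the mitosis genes differed in size of excess. FOXM1 had 5.06, 5.25, 5.13 and 1.64 TPM in DCLI1 to DCLI4, against 4.42, 3.60, 2.11 and 22.1 TPM in CON1 to CON4. MYBL2 had 16.6, 18.03, 21.7 and 6.10 TPM in DCLI1 to DCLI4, against 16.9, 12.3, 8.26 and 235 TPM in CON1 to CON4. In CON4 they stood at 5 and 14.2 times the median of the others, and DCLI4 was the lowest library for both. STMN1, stathmin, a protein that destabilizes microtubules, had 184, 154, 227 and 86.6 TPM in DCLI1 to DCLI4, against 177, 130.1, 146 and 3083 TPM in CON1 to CON4. This was the most abundant of the 43 genes in CON4 and the one with the largest excess there, at 19.99 times the median of the others.

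Compared over all 8 libraries, the group means of the S phase and mitosis genes were lower in DCLI, but the spread between control calves was larger than the difference. MKI67 averaged 13.3 ± 5.78 TPM in DCLI and 41.7 ± 62.3 TPM in CON (SD, n = 4 each), and PCNA averaged 44.3 ± 14.5 TPM in DCLI and 110.2 ± 144 TPM in CON (SD, n = 4 each). The comparison used limma on log2(TPM + 1) for all 13228 genes with at least 1 TPM in at least 4 libraries, with p-values adjusted by the Benjamini-Hochberg method over those genes, and a call needed an adjusted p under 0.05. All 43 genes entered it, and 0 of 43 were called, beside 0% of all genes. At an unadjusted p under 0.05 the limma count was 0 of 43, beside 7.08% of all genes. No gene of the 43 had DCLI and CON values without overlap (0 of 43), beside 5.39% of all genes.

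The log2 fold change of DCLI over CON was negative for 42 of the 43, beside 56.5% of all genes, and positive for 1, CCND1, beside 43.5% of all genes. Its median was -0.65 over the S phase genes (from -0.87 to -0.33) and -0.39 over the mitosis genes (from -1.05 to -0.11), with -0.06 over all genes tested. The 42 genes vary together across calves and share the CON4 library, so their common sign is not 42 separate results. STMN1 had the lowest value, -1.05 (SE 0.94, adjusted p = 0.774), and NCAPG the highest among mitosis genes, -0.11 (SE 0.80, adjusted p = 0.971), both by limma. In the S phase list the ends were MCM5 at -0.87 (SE 0.77, adjusted p = 0.773) and TYMS at -0.33 (SE 0.51, adjusted p = 0.856). The smallest unadjusted p of the 43 was 0.225, for CDT1, whose log2 fold change was -0.87 (SE 0.66, adjusted p = 0.758). For MKI67 it was -0.60 (SE 0.85, adjusted p = 0.843), with an exact 2-sided permutation p of 0.800 over the 70 assignments of calves, where the smallest possible p is 0.0286.

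Without CON4, the same genes had means that were similar or higher in DCLI. Over 13139 genes limma again called 0 of 43, beside 0% of all genes. The log2 fold change was positive for 41 of 43, beside 51.4% of all genes, and negative for MCM5 (-0.04) and CDT1 (-0.14). Its median was 0.11 over the S phase genes (from -0.14 to 0.37) and 0.36 over the mitosis genes (from 0.04 to 0.80), with 0.01 over all genes. No gene had groups without overlap in either direction (0 of 43), beside 3.42% of all genes with DCLI higher and 6.31% with DCLI lower.

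**Figure D3:**
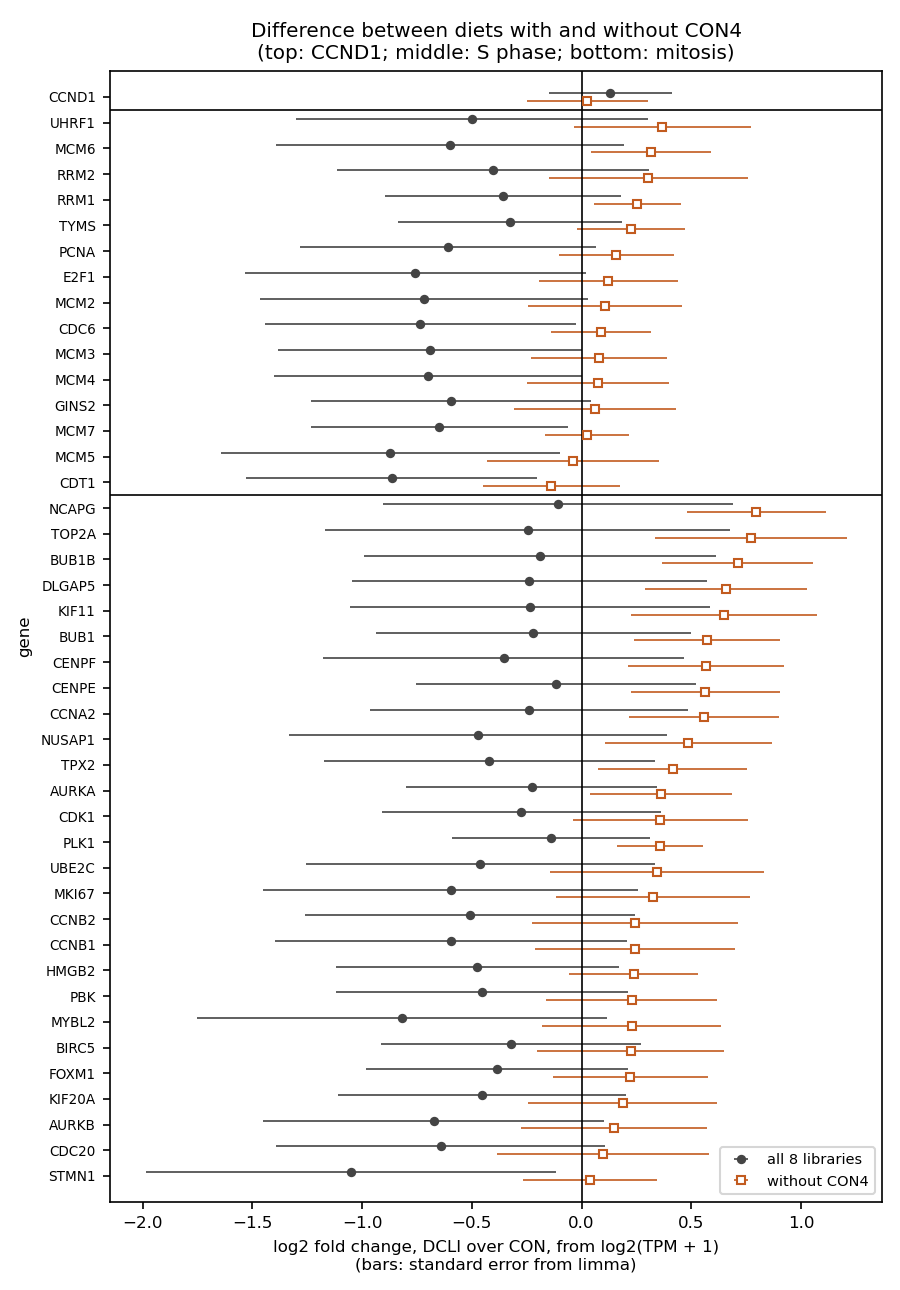
Log2 fold change of DCLI over CON (horizontal axis, from log2(TPM + 1)) for each of the 43 genes (vertical axis), with all 8 libraries (filled circles) and without CON4 (open squares), and bars for the standard error from limma. With CON4 the S phase and mitosis genes lie between -1.05 and -0.11, and without it between -0.14 and 0.80.

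Only NCAPG reached an unadjusted p under 0.05 without CON4 (1 of 43, beside 10.1% of all genes). Its mean was 11.7 ± 3.82 TPM in DCLI (n = 4) and 6.32 ± 2.57 TPM in CON1 to CON3 (n = 3), with a log2 fold change of 0.80 (SE 0.32, adjusted p = 0.456) by limma and an unadjusted p of 0.0347. The exact permutation p over 35 assignments was 0.114. TOP2A averaged 18.2 ± 7.93 TPM in DCLI (n = 4) and 10.7 ± 6.86 TPM in CON1 to CON3 (n = 3), with 0.77 (SE 0.44, adjusted p = 0.575) by limma. MKI67 averaged 13.3 ± 5.78 TPM in DCLI (n = 4) and 10.6 ± 5.13 TPM in CON1 to CON3 (n = 3), with 0.32 (SE 0.44, adjusted p = 0.833). For PCNA the means were closer, at 44.3 ± 14.5 TPM in DCLI (n = 4) and 38.3 ± 5.86 TPM in CON1 to CON3 (n = 3), with 0.16 (SE 0.26, adjusted p = 0.866), and for MCM2 they were 17.5 ± 5.51 TPM in DCLI (n = 4) and 16.9 ± 7.58 TPM in CON1 to CON3 (n = 3), with 0.11 (SE 0.35, adjusted p = 0.932).

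On the ratio of mean TPM in DCLI to mean TPM in CON1 to CON3, the mitosis genes ran from 1.08 to 1.91 (median 1.32) and the S phase genes from 0.919 to 1.32 (median 1.09). The ratio was at least 1.5 for 10 of 27 mitosis genes and for 0 of 15 S phase genes, beside 6.1% of all genes tested without CON4, and the difference between the 2 sets was not tested. The 10 were NCAPG, TOP2A, BUB1B, DLGAP5, KIF11, BUB1, CENPF, CENPE, CCNA2 and NUSAP1. Mitosis genes vary together across calves, so these are not 10 separate results. Outside CON4 their highest value was a median of 3.55 times the lowest, against 1.99 times over all tested genes. The helicase subunits had a median ratio of 1.04, and the kinetochore and spindle genes one of 1.78. CDC20 and UBE2C, the genes of mitotic exit, were at 1.09 and 1.19, below the median of the mitosis genes.

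The calves within a group also differed from each other. Leaving out CON4 turned the sign of the log2 fold change of 40 of the 43 genes, leaving out DCLI4 that of 10 and leaving out CON3 that of 1, CCND1. Among the 7 libraries other than CON4, DCLI3 was the highest for 32 of the 42 S phase and mitosis genes, and CON1 was so for 5, DCLI1 for 3 and DCLI2 for 2. The lowest was CON3 for 22 genes, DCLI4 for 19 and CON1 for 1, RRM1. The highest of the 7 values was 1.56 to 3.97 times the lowest for S phase genes (median 2.55) and 1.70 to 4.66 times for mitosis genes (median 3.55), with a median of 1.99 over all tested genes.

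The mean log2(TPM + 1) of the 15 S phase genes was 4.37, 4.03, 4.62 and 3.59 in DCLI1 to DCLI4, against 4.24, 4.25, 3.56 and 7.05 in CON1 to CON4. That of the 27 mitosis genes was 4.36, 3.92, 4.45 and 3.12 in DCLI calves, against 3.86, 3.81, 3.04 and 6.76 in CON calves. CON4 was high and DCLI4 and CON3 were low in both sets. The mitosis mean minus the S phase mean was -0.01, -0.11, -0.17 and -0.47 in DCLI1 to DCLI4, against -0.38, -0.44, -0.52 and -0.30 in CON1 to CON4. DCLI1, DCLI2 and DCLI3 had the 3 values nearest to 0 and DCLI4 lay inside the control range, so the groups overlapped. CON4 had the highest of the 4 control values and lay below DCLI1, DCLI2 and DCLI3.

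In CON1 single genes departed from the rest of the set. It was the highest of the 7 libraries for MCM5, AURKB, CDC20, CCNB2 and UBE2C, and for CCND1. UBE2C, singled out after its values were seen, had 109, 69.8, 103 and 38.4 TPM in DCLI1 to DCLI4, against 111, 61.6, 28.7 and 550.0 TPM in CON1 to CON4. In the same calf TOP2A and NCAPG were both second lowest of the 7, at 7.90 and 4.86 TPM.

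The high values of CON4 went with B cell markers. All 18 B cell and germinal centre markers were highest in CON4 (18 of 18), none was at 0 in any library, and their sum was 5473 TPM there, against 65.4 to 93.1 TPM in DCLI and 65.1 to 93.2 TPM in CON1 to CON3. VPREB3, a protein of the B cell lineage, had 4.98, 0.79, 1.45 and 4.38 TPM in DCLI1 to DCLI4, against 3.02, 3.77, 1.92 and 1033 TPM in CON1 to CON4. CD79A, a signalling subunit of the B cell antigen receptor, had 16.7, 3.48, 14.8 and 12.5 TPM in DCLI1 to DCLI4, against 10.7, 20.1, 5.69 and 744 TPM in CON1 to CON4. SPIB, a transcription factor of B cells and some epithelial cells, had 28.8, 26.6, 40.7 and 29.2 TPM in DCLI1 to DCLI4, against 44.1, 31.4, 20.5 and 403 TPM in CON1 to CON4. Of the B cell markers, 13 entered the limma fit over 8 libraries, all 13 with a negative log2 fold change (median -1.53), beside 56.5% of all genes. Of these, 0 were at an unadjusted p under 0.05, beside 7.08% of all genes. Without CON4, 5 of 11 were positive and 6 negative (median -0.05), beside 51.4% of all genes positive. At an unadjusted p under 0.05 by limma stood 1 of 11, S1PR2 (lower in DCLI), beside 10.1% of all genes. Limma called 0 in either fit. The T cell marker mean was lowest in CON4, at 4.14 on the log2(TPM + 1) scale, against 4.79 to 5.31 in DCLI and 4.82 to 5.35 in CON1 to CON3.

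Markers of crypt cells did not move as one with the proliferation genes. The mean of the 16 crypt markers was 2.87, 2.40, 2.88 and 2.99 in DCLI1 to DCLI4, against 2.32, 3.27, 2.70 and 2.37 in CON1 to CON4. OLFM4, a secreted crypt base protein, had 107, 54.9, 266 and 378 TPM in DCLI1 to DCLI4, against 87.9, 624, 204 and 20.1 TPM in CON1 to CON4. SMOC2, another stem cell marker, had 50.04, 17.2, 44.2 and 41.4 TPM in DCLI1 to DCLI4, against 19.9, 59.2, 35.2 and 9 TPM in CON1 to CON4. CON4 was the lowest library for 10 of the 16 markers, these included, and the highest for 4, SOX9, EPHB3, CDCA7 and MEX3A. LGR5, the defining stem cell receptor, was under 1 TPM in all 8 libraries and at 0 in DCLI2. CDCA7, a MYC and E2F target also known from other dividing cells, had 41.99, 28.1, 39.7 and 34.8 TPM in DCLI1 to DCLI4, against 19.4, 45.2, 23.7 and 362 TPM in CON1 to CON4. In bulk tissue, fewer cells of a type and less RNA per cell cannot be told apart, and the part of B cell content in the CON4 values was not tested.

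**Figure D4:**
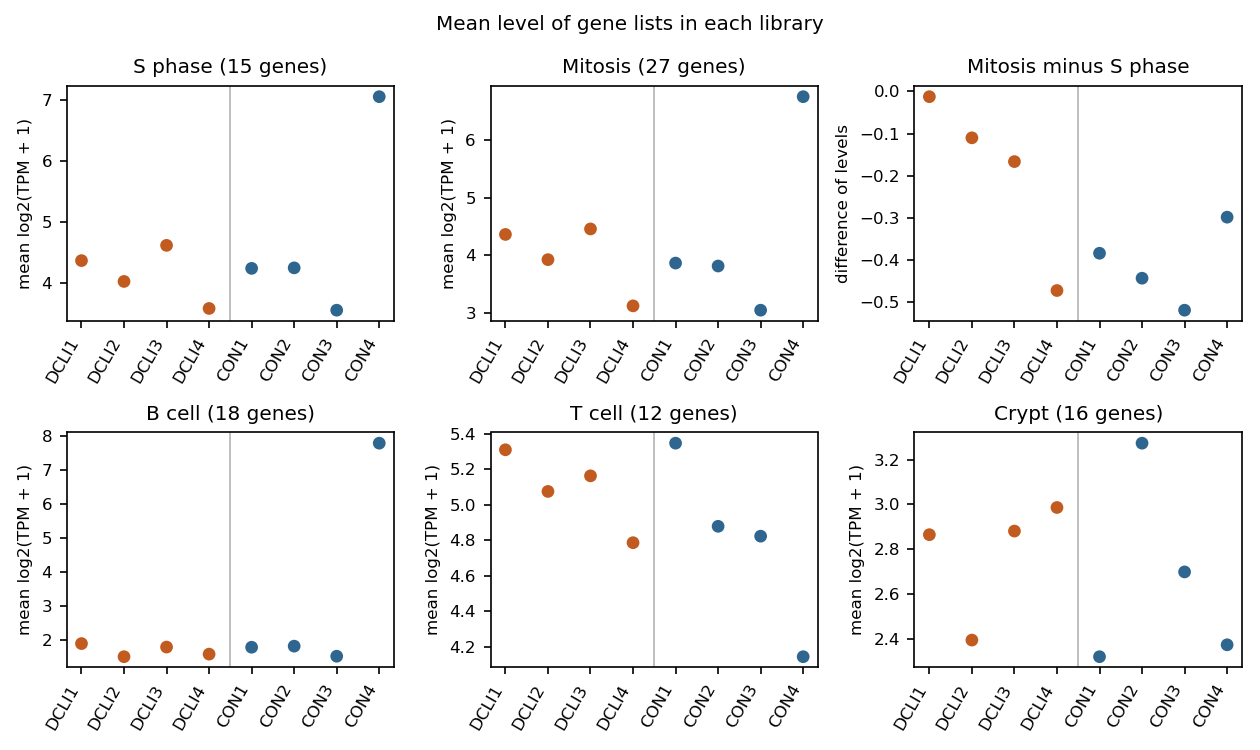
Mean log2(TPM + 1) of gene lists, and the mitosis mean minus the S phase mean (vertical axes), in each library (horizontal axis, DCLI left of the line and CON right). S phase, mitosis and B cell means are highest in CON4 (7.05, 6.76 and 7.78), the T cell mean is lowest there (4.14), and the crypt mean is not raised (2.37).

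Further genes of replication and mitosis were also highest in CON4. Of 40 further S phase genes, 39 were highest in CON4, the exception being ORC4, and of 56 further mitosis genes 56 were. DUT, which removes dUTP from the nucleotide pool, had 108, 119, 141 and 83.8 TPM in DCLI1 to DCLI4, against 95.3, 89.1, 119 and 578 TPM in CON1 to CON4. CKS2, a subunit of the cyclin-dependent kinases, had 131, 119.8, 111 and 44.4 TPM in DCLI1 to DCLI4, against 112, 77, 65.4 and 417 TPM in CON1 to CON4. SLBP, which binds the mRNA of replication histones, and RPA3, of the single-strand binding complex, were at 186 and 202 TPM in CON4, and CKS1B and the checkpoint gene BUB3 at 187 and 185 TPM. Over all 8 libraries, 2 of the 40 S phase genes and 7 of the 56 mitosis genes had a positive log2 fold change. The share over all genes was 43.5%, and the medians of the lists were -0.39 and -0.33. In both lists limma gave 0 calls and 0 genes at an unadjusted p under 0.05, beside 7.08% of all genes.

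Without CON4, 32 of the 40 S phase genes and 52 of the 55 mitosis genes tested had a positive log2 fold change. The share over all genes was 51.4%, the medians of the lists were 0.13 and 0.35, and again 0 were called. At an unadjusted p under 0.05 by limma stood 1 of the 40 S phase genes, DBF4, higher in DCLI. So did 5 of the 55 mitosis genes, NUF2, KIF15, ECT2, DEPDC1 and CKAP2, all higher in DCLI. Both counts stand beside 10.1% of all genes. CKAP2, a spindle protein and the lowest in p of these (singled out after its values were seen), had 22.7, 25.7, 24.1 and 12.3 TPM in DCLI1 to DCLI4, against 7.91, 14.3, 9.71 and 58.2 TPM in CON1 to CON4. Its mean was 21.2 ± 6.06 TPM in DCLI (n = 4) and 10.6 ± 3.31 TPM in CON1 to CON3 (n = 3), with 0.92 (SE 0.29, adjusted p = 0.415) by limma, and DCLI4 overlapped with CON2.

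The 29 regulators included cyclins D and E, their kinases, E2F and pocket proteins, and also CDC25A, LIN, WEE1, PKMYT1, checkpoint kinase and MYC genes. CON4 was the highest library for 26 of the 29. The exceptions were CCND3, E2F5 and E2F7. CCND3, cyclin D3, the most abundant of them, had 93.5, 126, 86.7 and 102 TPM in DCLI1 to DCLI4, against 115, 94.4, 116 and 114 TPM in CON1 to CON4. It was level across the 8 calves, in contrast to CDK4, the kinase it activates, which had 42.97, 34.7, 47.4 and 43.8 TPM in DCLI1 to DCLI4, against 54.2, 49.1, 37.7 and 148 TPM in CON1 to CON4. CCND2 and E2F4 were at 30.3 and 73.5 TPM in CON4, and TFDP1, the partner of E2F factors, was at 70.8 TPM. Of the 28 tested, 6 had a positive and 22 a negative log2 fold change (median -0.17), beside 43.5% and 56.5% of all genes. Limma called 0, with 0 at an unadjusted p under 0.05, beside 7.08% of all genes. Without CON4, 24 were positive and 4 negative (median 0.17), beside 51.4% of all genes positive. Limma again called 0, with 0 at an unadjusted p under 0.05, beside 10.1% of all genes.

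The brakes of the cell cycle, 18 genes for inhibitors of cyclin-dependent kinases and other antiproliferative proteins, did not follow CON4 as a set, which was the highest library for 8 of them and the lowest for 9. With all 8 libraries 9 were positive and 9 negative (median 0.01), beside 43.5% of all genes positive. Limma called 0, with 0 at an unadjusted p under 0.05, beside 7.08% of all genes. Without CON4, 8 were positive and 10 negative (median -0.19), beside 51.4% of all genes positive. MXI1, a repressor that opposes MYC, had 35.8, 46.9, 36.03 and 31.9 TPM in DCLI1 to DCLI4, against 23.2, 31.5, 28.5 and 6.72 TPM in CON1 to CON4. Each DCLI value was above each CON value. MXI1 was the only gene of the 18 without overlap in either direction (1 of 18), beside 5.39% of all genes. Its log2 fold change was 0.89 (SE 0.43, adjusted p = 0.712) by limma. Without CON4 it was 0.42 (SE 0.18, adjusted p = 0.477), still with no overlap, beside 3.42% of all genes with DCLI higher.

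CDKN1A, the p21 inhibitor that halts the cycle in G1, had 80.9, 84.5, 79.5 and 84.4 TPM in DCLI1 to DCLI4, against 114, 117, 94.7 and 23.7 TPM in CON1 to CON4. The DCLI calves lay close together, below CON1 to CON3 and above CON4, so the group means of 82.3 ± 2.49 TPM in DCLI and 87.4 ± 43.6 TPM in CON (SD, n = 4 each) cover a control group that spans both sides. The log2 fold change was 0.15 (SE 0.46, adjusted p = 0.930) over all libraries and -0.39 (SE 0.13, adjusted p = 0.421) without CON4, both by limma. CDKN1C, the p57 inhibitor, singled out after its values were seen, had 4.38, 5.96, 6.19 and 5.29 TPM in DCLI1 to DCLI4, against 8.31, 7.81, 14.1 and 3.24 TPM in CON1 to CON4. It gave -0.41 (SE 0.36, adjusted p = 0.772) with all libraries and -0.74 (SE 0.23, adjusted p = 0.405) without CON4 by limma. Without CON4, these 2 of the 18 genes were lower in each DCLI calf than in each control calf, beside 6.31% of all genes, and both had an exact permutation p of 0.0286, the smallest that 35 assignments can give. At an unadjusted p under 0.05 the 3 genes MXI1, CDKN1A and CDKN1C stood without CON4, beside 10.1% of all genes, and limma called 0 of the 18.

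CDKN2C, the p18 inhibitor of CDK4 and CDK6, had 12.1, 8.68, 11.6 and 8.61 TPM in DCLI1 to DCLI4, against 14.4, 9.61, 14.7 and 46.3 TPM in CON1 to CON4, and GADD45B, a stress response gene, had 15.4, 13.8, 18.3 and 9.19 TPM in DCLI1 to DCLI4, against 21.9, 15.4, 18.6 and 81.1 TPM in CON1 to CON4. Both were highest in CON4. The most abundant brakes were BTG1, which had 354, 525, 481 and 440.3 TPM in DCLI1 to DCLI4, against 363, 388, 582 and 232 TPM in CON1 to CON4, and CCNG1, which had 179, 206, 210.4 and 278 TPM in DCLI1 to DCLI4, against 139, 172, 253 and 179 TPM in CON1 to CON4. BTG1 was lowest in CON4, CCNG1 was lowest in CON1, and the groups overlapped for both.

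**Figure D5:**
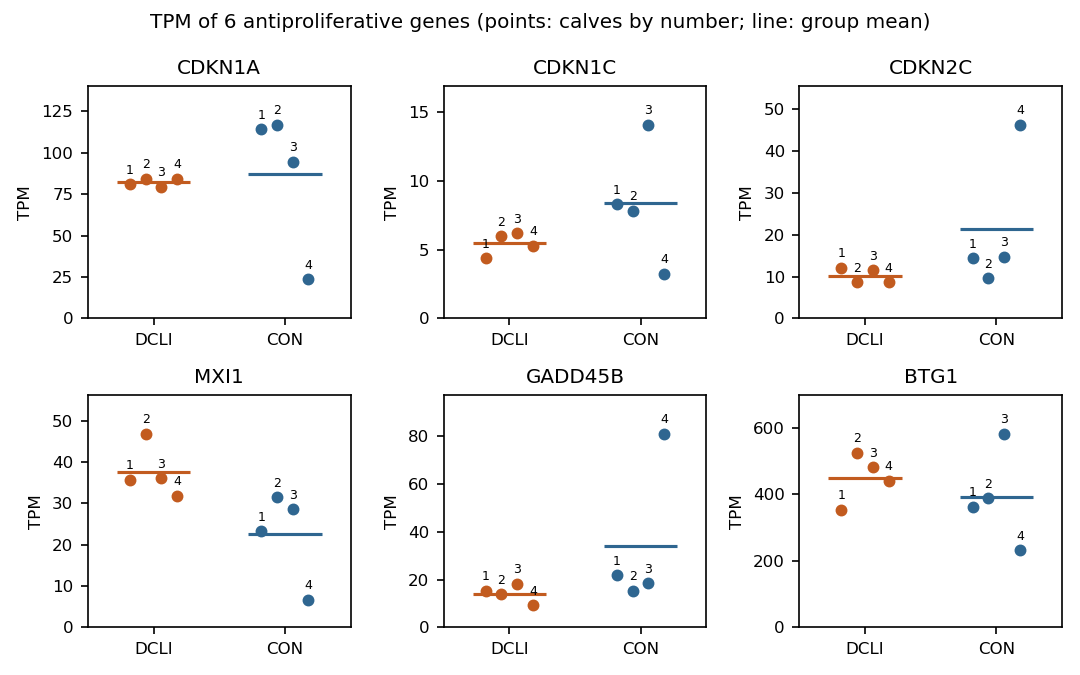
TPM (vertical axis, from 0) of 6 antiproliferative genes in DCLI and CON calves (horizontal axis), with points numbered by calf and a line at the group mean. For CDKN1A the DCLI calves lie at 79.5 to 84.5 TPM, between CON4 at 23.7 TPM and the other CON calves at 94.7 to 117 TPM, and for MXI1 each DCLI calf lies above each CON calf.

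Other cell types of the gut wall also differed between calves, beside the proliferation genes. All 21 enterocyte markers had a positive log2 fold change over the 8 libraries (median 1.65), and 17 of 21 did without CON4 (median 0.66). All 11 fibroblast and smooth muscle markers had a negative one with CON4 (median -0.96) and without it (median -1.19). Over all genes tested, 43.5% were positive over the 8 libraries and 51.4% without CON4. Limma called 0 genes in both lists, with 8 and 3 at an unadjusted p under 0.05 over 8 libraries, beside 7.08% of all genes, and 9 and 6 without CON4, beside 10.1% of all genes. The mean of these stromal markers was 6.15, 7.11, 7.09 and 6.43 in DCLI1 to DCLI4, against 7.52, 7.44, 8.42 and 6.66 in CON1 to CON4, highest in CON3, 1 of the 2 calves with the lowest proliferation genes. The enterocyte mean was 9.26, 9.35, 8.70 and 9.48 in DCLI calves, against 7.61, 9.08, 7.44 and 4.60 in CON calves, so that DCLI4, the other such calf, was the highest for it. The macrophage and neutrophil markers had a negative log2 fold change for 7 of 7 tested, the goblet cell markers a positive one for 6 of 6, the T cell markers a positive one for 9 of 12, the plasma cell markers for 5 of 7, the crypt markers for 9 of 14 and the endothelial markers for 3 of 6. Without CON4 the negative count was 7 of 7 for the macrophage and neutrophil markers, and the positive counts were 5 of 6 for goblet cells, 10 of 12 for T cells, 5 of 7 for plasma cells, 8 of 14 for the crypt and 0 of 6 for the endothelium. The part of tissue composition in the differences of the 43 genes was not tested.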

How the data were processed

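Jejunal RNA of 4 DCLI and 4 CON calves was sequenced as poly(A)-selected libraries, 1 per calf. According to the methods, the authors used SOAPnuke to filter reads, HISAT2 to align them to the ARS-UCD1.2 assembly and RSEM to estimate expression, and per the labels DESeq2 (version 1.4.5) was used. The deposited TPM values are given per transcript (50681) and were summed to 17932 genes by gene ID. The deposited table also has estimated counts for 76 transcripts, which did not follow the TPM of the same transcripts (median r -0.0808, 0 above 0.95) and were not used, nor were the authors' own fold changes and p-values. TPM keeps no depth, so no counting interval is given. Of the gene IDs, 17696 matched RefSeq (ARS-UCD2.0), used for symbols only, so no coordinates are given.

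The study's own test, on counts, called genes between these groups and could not be repeated. The lack of calls here therefore holds only for limma on log2(TPM + 1). limma 3.58.1 (R 4.3.3; lmFit, eBayes with trend) was run on log2(TPM + 1), which understates fold changes of low genes, with the filter and adjustment given above. Groups followed the treatment label, and limma p-values set the difference between groups against the spread between calves of a group. The code was tested on simulated data. Values in every library were given for 10 chosen members, for the 2 members of each set with the largest and the 2 with the smallest log2 fold change and the 2 with the smallest p, and in other lists for the 3 most abundant genes and, for regulators and inhibitors, also the 3 with the smallest p, some by range. The members and lists were chosen with earlier results of these data known. The 20 alternatives covered pseudocounts, filters, scaling, weights, a replicate block and leaving out calves.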

Additional observations from a re-analysis of the deposited data

Results flagged for a closer look

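In groups of 4 calves, the gap between an extreme value of log2(TPM + 1) and its neighbour, divided by the group's range, was compared with Dixon's 95% critical value for 4 samples, for each of the 43 genes and the set means, 90 groups in all, of which chance passes about 1 in 20. CON4 lay above the other CON calves by this measure for STMN1 (0.903), PLK1 (0.919), E2F1 (0.888), CENPF (0.885), PCNA (0.868), BUB1 (0.868), HMGB2 (0.860), RRM1 (0.835), CENPE (0.833) and NUSAP1 (0.830). DCLI4 lay below the other DCLI calves for FOXM1 (0.964) and CENPE (0.884). The genes vary together, so these values are not separate observations of CON4 or of DCLI4.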

How the results depend on the processing

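Under all 20 alternatives limma called 0 of the 43 genes. Over all 8 libraries, no member tested turned its sign with pseudocounts of 0.1 or 5, median-ratio scaling, no top 50 genes or quantile normalization. No filter, a filter of 5 TPM, no trend and the replicate block over all 8 libraries cannot change a log2 fold change. They are therefore no check of its sign. Leaving out 1 calf at a time, the median log2 fold change ran from -1.07 (without CON3) to 0.11 (without CON4) over the S phase genes and from -0.78 (without CON3) to 0.36 (without CON4) over the mitosis genes, where it was -0.08 without DCLI4. Genes called ran from 0 to 9 (9 without CON2, 1 without DCLI1, 0 otherwise), and members at an unadjusted p under 0.05 from 0 to 1 (1 without CON4). Of the 17 members chosen for values in every library, the 15 that turned their sign ranged over the left-out calves from -0.70 to 0.36 for CDK1, -0.42 to 0.56 for CENPE, -0.50 to 0.80 for NCAPG, -0.0512 to 0.32 for CCND1, -0.94 to 0.16 for PCNA, -1.25 to 0.11 for MCM2, -0.56 to 0.23 for TYMS, -0.64 to 0.25 for RRM1, -1.13 to 0.12 for E2F1, -1.21 to 0.32 for MKI67, -0.80 to 0.77 for TOP2A, -1.19 to 0.24 for CCNB1, -0.74 to 0.22 for FOXM1, -1.33 to 0.23 for MYBL2 and -1.48 to 0.0378 for STMN1. DCLI4 turned CDK1, CENPE and NCAPG, CON3 turned CCND1, and CON4 turned the others and these 3.

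Array weights, which give less weight to a library that fits its group poorly, turned the sign of 38 of 43 genes, with medians of 0.06 (S phase) and 0.31 (mitosis), and gave log2 fold changes of 0.0883 for PCNA, 0.046 for MCM2, 0.11 for TYMS, 0.10 for RRM1, 0.10 for E2F1, 0.18 for MKI67, 0.31 for TOP2A, 0.24 for CDK1, 0.14 for CCNB1, 0.47 for CENPE, 0.23 for FOXM1, 0.27 for MYBL2, 0.18 for STMN1 and 0.51 for NCAPG. Leaving out CON4 and scaling by median ratios gave 1 member at an unadjusted p under 0.05, medians of 0.11 and 0.36, and 0.16 for PCNA, 0.11 for MCM2, 0.23 for TYMS, 0.26 for RRM1, 0.12 for E2F1, 0.32 for MKI67, 0.77 for TOP2A, 0.36 for CDK1, 0.24 for CCNB1, 0.56 for CENPE, 0.21 for FOXM1, 0.23 for MYBL2, 0.0429 for STMN1 and 0.80 for NCAPG.

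Same-numbered DCLI and CON calves had correlations of deviations of 0.05, -0.04, -0.03 and -0.20. The other pairs ran from -0.41 to 0.37, so these values do not show whether replicate numbers paired the calves. The methods describe random allocation of calves to the groups and mention no pairing. With all calves and the replicate block the medians were -0.65 and -0.39, as without the block. A block that holds a calf of each group under each number cannot change them. With CON4 left out, the replicate block gave medians of 0.32 and 0.63, 9 members at an unadjusted p under 0.05 (beside 10.3% of all genes), 0 called, and 0.35 for PCNA, 0.27 for MCM2, 0.14 for MCM5, 0.43 for TYMS, 0.38 for RRM1, 0.0753 for CDT1, 0.41 for E2F1, 0.61 for MKI67, 1.02 for TOP2A, 0.65 for CDK1, 0.43 for CCNB1, 0.87 for CENPE, 0.53 for FOXM1, 0.60 for MYBL2, 0.31 for STMN1 and 1.02 for NCAPG. With CON4 left out, DCLI4 had no CON calf under its number, so under the block it added nothing to the log2 fold change. These values therefore compare DCLI1 to DCLI3 with CON1 to CON3, without DCLI4, which was low in both sets. Why DCLI4 was low was not tested. A TPM keeps no depth, so the calves of a group set the precision, 4 in the main fit and fewer here.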
